A study of Mus musculus with 18 samples.

Results

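Cytosolic ribosomal protein genes encode the proteins of the ribosomes that translate messages in the cytosol. Members were chosen by symbol alone, as symbols that begin with Rpl or Rps followed by a digit, together with Rplp0, Rplp1 and Rplp2. Symbols of the ribosomal protein kinases (Rps6k), Rps19bp1 and symbols with the pseudogene mark "-ps" were not taken. The rule found 87 of the 18204 genes in the table, 52 with large subunit symbols and 35 with small subunit symbols. All 87 were among the 16383 genes that passed the limit on low expression and were tested. The annotation lists 83 of them as protein coding and 4 as pseudogenes, namely Rps3a2, Rps3a3, Rpl37rt and Rpl6l.

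A ribosome is built from ribosomal RNA and a fixed set of proteins, which cells need in matched amounts. Many of the messages for these proteins begin with a C followed by a run of pyrimidines, the terminal oligopyrimidine pattern, through which mTOR signalling sets how well they are translated. Some members have a paralog whose protein can take the place of the usual one, and free ribosomal proteins can act outside the ribosome.

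The cells were J774.1, a mouse macrophage line, either wildtype or a Ctbp1/2dKO line in which the genes of the transcriptional corepressors CTBP1 and CTBP2 had been edited (dKO in the text). Each genotype received vehicle, 1.5 mM MTOB or 0.25 mM 4-Cl-HIPP for 4 h, both being inhibitors of CTBP proteins, and RNA was sequenced from 3 biological replicates of each of the 6 groups. There was 1 vehicle group per genotype, which both inhibitors share as their control. The labels give MTOB as dissolved in PBS, 4-Cl-HIPP in DMSO and the vehicle as PBS/DMSO, so whether each inhibitor and its control held the same solvents is not known. The dKO cells are a monoclonal line, so genotype and clone cannot be told apart. Levels are TPM, a length-corrected share of each sample's messages scaled to a fixed sum. Each sample's TPM over the listed genes summed to between 999766 and 999897, so the number of reads is unknown.

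The edited genes were read first, as a check of the labels. Ctbp1 stood at 212, 238 and 204 TPM in wildtype vehicle and at 24.4, 25.2 and 25.6 TPM in dKO vehicle. Every dKO sample, treated ones included, lay below every wildtype sample, and the fitted difference under vehicle was −3.07 on the log2 scale (adjusted p 1.61e-10). Ctbp2 stood at 87.8, 93.2 and 96.9 TPM in wildtype vehicle and at 73.5, 74.9 and 79.4 TPM in dKO vehicle, a smaller drop (log2 fold change −0.28, adjusted p 0.00427) that also left no overlap. Of 10 macrophage markers, 9 were in the table, with Csf1r the most abundant at a mean of 840.3 TPM and their sum between 2397 and 3493 TPM per sample. The other marker, Mertk, had no entry. Single macrophage markers differed between the genotypes under vehicle, in both directions. Cd14 stood at 462, 440 and 473 TPM in wildtype and at 135, 145 and 149 TPM in dKO. Adgre1 stood at 27.5, 24.6 and 35.3 TPM against 7.94, 8.84 and 10.0 TPM, and Itgam at 21.0, 13.4 and 13.0 TPM against 44.1, 51.35 and 48.2 TPM. All markers of T cells, B cells, fibroblasts, epithelium and endothelium that were in the table had a mean under 1 TPM.

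One sample stood apart. In dKO MTOB replicate 1 the genes of the mitochondrial genome held 7.04% of TPM and the 10 most abundant genes 8.78%, against 8.98% to 10.3% and 10.1% to 10.9% in the other samples. Ribosomal protein genes held their largest share in the same sample. Counts and medians of members in the comparisons that use it were refitted without it. So were the calls of other genes: of 16 such calls in the lists read below, 8 of 8 between the genotypes under MTOB and 6 of 8 for MTOB in dKO stayed without it. The 2 lost were Depdc5 (log2 fold change −0.655 and adjusted p 0.0499 with it, −0.682 and 0.0927 without it) and Mrpl10 (−0.181 and 0.0466, −0.188 and 0.0809), whose log2 fold changes did not shrink.

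Ribosomal protein messages were among the most abundant in the cells. The mean TPM of a member over the 18 samples had a median of 1300 (quartiles 720.3 and 1920), against 7.18 for all genes in the table. A mean of at least 1000 TPM was reached by 56 members and of at least 100 TPM by 81, and 36 members were among the 100 most abundant genes. The members lie on 19 chromosomes, with 14 on chromosome 7, 8 on chromosome 17 and 4 on chromosome X. The longest annotated transcript had a median of 1907 bases over the members and 3334 over all genes, and it was under 1000 bases for 23.0% of members and 13.7% of all genes.

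Replicates gave close values for these genes. The standard deviation between replicates had a median of 0.0622 on the log2 scale over the members and 0.161 over the other genes tested. At a mean of 1000 TPM or more it was 0.0523 for 56 members and 0.0521 for 87 other genes.

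The highest members in wildtype vehicle were Rplp1, a protein of the stalk that recruits elongation factors, Rps27rt, Rps25, the very small protein gene Rpl41, and Rpl23a, whose protein sits at the exit of the peptide tunnel. Rplp1 had a mean of 5060 TPM over the 18 samples, Rps25 3441, Rps27rt 3329, Rpl41 3247 and Rpl23a 3083. The lowest were Rps23rg1 at 0.0787 TPM, Rpl3l at 0.826, Rpl6l at 7.45, Rps3a3 at 8.92 and Rpl29 at 42.6. Rps23rg1 is a member by symbol only: its coding sequence aligned with the 432 coding bases of Rps23 over just 12 bases. It is therefore not taken to encode a ribosomal protein. Rpl3l is the paralog of Rpl3 used in heart and skeletal muscle. The listed paralogs Rpl10l, Rpl26l1, Rpl39l and Rps4l had no entry in the table.

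Some members have known roles beside assembly. Among the stalk genes, Rplp0, which anchors the stalk, ranged from 1159 to 1304 TPM over the 18 samples (median 1231), Rplp1 from 4797 to 5861 (median 5019) and Rplp2 from 1459 to 1662 (median 1583). Rpl5 and Rpl11, whose proteins can bind MDM2 outside the ribosome and so act on p53, ranged from 170.0 to 222 TPM and from 1475 to 1810 TPM. The top Rplp1 value was that of dKO MTOB replicate 1, and the remaining 17 lay between 4797 and 5269 TPM. Rps6, the substrate of the kinases of Rps6kb1 and Rps6kb2, ranged from 1191 to 1458 TPM. Rpl13a, linked in myeloid cells to silencing of inflammatory messages after interferon, ranged from 2421 to 3067 TPM. Rps3, which also takes part in NF-kappaB binding to DNA, Rps19 and Rps14, both lost or mutated in anaemias, and Rpl17 ranged from 1309 to 1447, from 1683 to 2050, from 1061 to 1522 and from 1382 to 1554 TPM. None of these 11 members passed the test, an adjusted p under 0.05 in limma, in any comparison below. In these comparisons between 0% and 7.01% of all genes passed in a given direction.

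Several members that every ribosome needs had low values of their own, while near-identical copies elsewhere in the genome held most of the TPM. The table has 166 named ribosomal protein pseudogenes, 156 of them copies of 50 members, and together they held 2.38% to 2.69% of each sample's TPM. For 11 members the named pseudogenes held more TPM than the gene itself. Rps2, whose protein lies at the entry of the messenger channel, averaged 71.1 TPM against 2218 in 8 pseudogenes. Rps18 averaged 131.7 TPM against 2149 in 5, and Rpl3, which lies near the catalytic centre, 212.6 against 1556 in 2. When each member was pooled with its named pseudogenes, the number of members under 1000 TPM went from 31 to 21, and Rps2, Rps18 and Rpl3 came to 2289, 2281 and 1768 TPM. Reads that match both copies are divided by the authors' quantifier, and how they were divided was not tested.

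**Figure D1:**
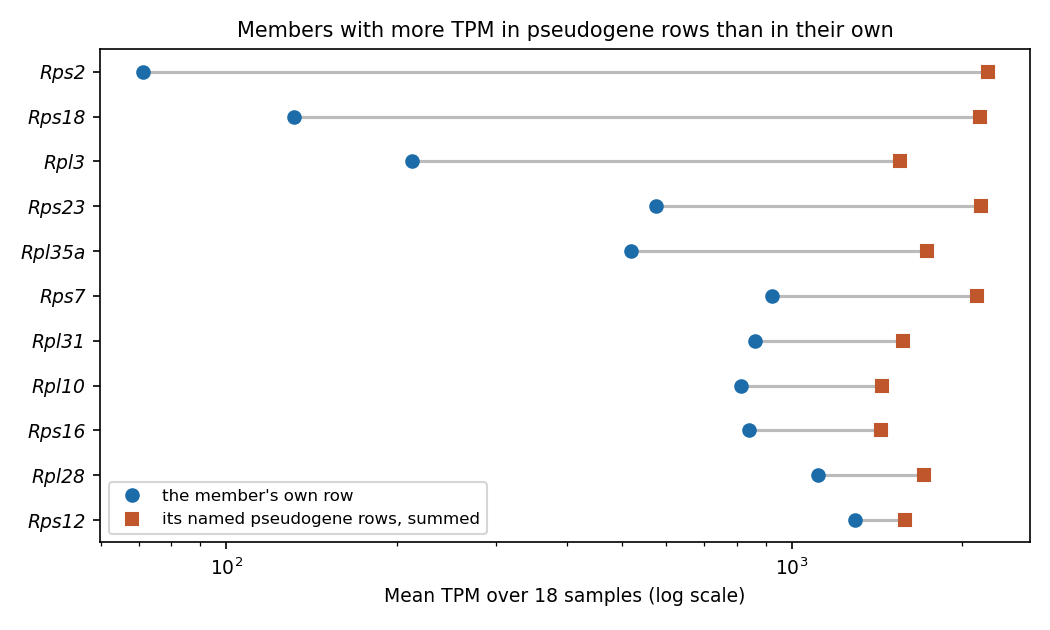
Mean TPM over 18 samples (log axis) of the 11 members whose named pseudogenes hold more TPM than the gene itself, with circles for the member and squares for the sum of its pseudogenes. Rps2 lies at 71.1 TPM and its pseudogenes at 2218.

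The copies differ from their genes by few bases. The coding sequence of Rpl10, Rpl10a, Rpl15, Rpl28, Rpl31, Rpl36a, Rps6 and Rps16 is matched in full by a named pseudogene, with 0 differing bases. Pseudogenes were named by symbol, and the annotation lists Rpl10-ps3, the match of Rpl10, and Rps18-ps6 as protein coding. Rps2 differs from Rps2-ps10 at 5 of 879 aligned bases, Rps18 from Rps18-ps6 at 4 of 459 and Rpl3 from Rpl3-ps1 at 2 of 1209. Both windows below hold a base that tells the gene from the copy, in capitals, and are shown because within the coding sequence only reads over such bases tell the 2 apart. They come from the GRCm39 annotation. Rps18 lies on the minus strand at chr17:34170972-34175057 and Rps18-ps6 on the minus strand at chr13:97896580-97897140. Rpl3 lies on the minus strand at chr15:79961825-79976069 and Rpl3-ps1 on the plus strand at chrX:13068810-13070019. Positions are counted from 1 at the first coding base of the member, with the member's base first, and the windows cover coding bases 171 to 200 of Rps18 and 42 to 71 of Rpl3.
Rps18: agaactcacggaggaTgaggtggagcgagt
Rps18-ps6: agaactcacggaggaCgaggtggagcgagt
Rpl3: gggcttcctgcctcgCaagcgcagcagccg
Rpl3-ps1: gggcttcctgcctcgAaagcgcagcagccg
The differences are T186C, A337C, G371A and G431A between Rps18 and Rps18-ps6, and C57A and T786C between Rpl3 and Rpl3-ps1.

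Rps27 and its retrotransposed copy Rps27rt have coding sequences that match at 255 of 255 bases, and their sum was steadier than their separate values. Rps27 ranged from 25.9 to 573 TPM over the 18 samples, a coefficient of variation of 46.5%. Rps27rt ranged from 3015 to 3882 TPM (6.87%) and the sum of both from 3410 to 3939 TPM (5.04%). The lowest Rps27 values, 25.9 TPM in wildtype MTOB replicate 3 and 33.3 TPM in dKO 4-Cl-HIPP replicate 1, fell in the samples with the highest Rps27rt value of their groups, 3882 and 3447 TPM. The sum varied less between samples than either gene.

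The 87 members together held between 11.7% and 12.9% of the TPM of a sample. Their share was 12.26%, 12.64% and 12.31% in wildtype vehicle, 12.20%, 12.35% and 12.46% in wildtype MTOB and 12.41%, 12.48% and 12.16% in wildtype 4-Cl-HIPP. In dKO it was 12.06%, 12.00% and 12.02% under vehicle, 12.94%, 11.69% and 11.88% under MTOB and 11.76%, 11.97% and 12.00% under 4-Cl-HIPP. The dKO samples lay below all wildtype samples of the same treatment under vehicle and under 4-Cl-HIPP. Under MTOB that held for 2 of 3 dKO samples, and dKO MTOB replicate 1 lay above all others. Within a genotype the 3 treatments overlapped. Mean shares were 12.40% ± 0.203 (SD, n = 3) and 12.02% ± 0.0324 (SD, n = 3) in wildtype and dKO vehicle.

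The large subunit members held 6.90% ± 0.127 (SD, n = 3) of TPM in wildtype vehicle and 6.69% ± 0.0171 in dKO vehicle, and the small subunit members 5.51% ± 0.0788 and 5.33% ± 0.0439. Neither subunit overlapped between the genotypes under vehicle. The genes of the mitochondrial genome held 9.66%, 9.36% and 9.21% in wildtype vehicle and 10.3%, 9.93% and 9.65% in dKO vehicle, with an overlap. Because TPM are shares of a fixed sum, a lower share of 1 class raises others, and the part of mitochondrial RNA in the result was not tested. Mitochondrial ribosomal protein genes, which are nuclear, held 0.762% ± 0.0151 and 0.755% ± 0.00315 of TPM in wildtype and dKO vehicle. Less ribosomal protein RNA in each cell and a change in the mixture of cells cannot be told apart in bulk RNA.

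**Figure D2:**
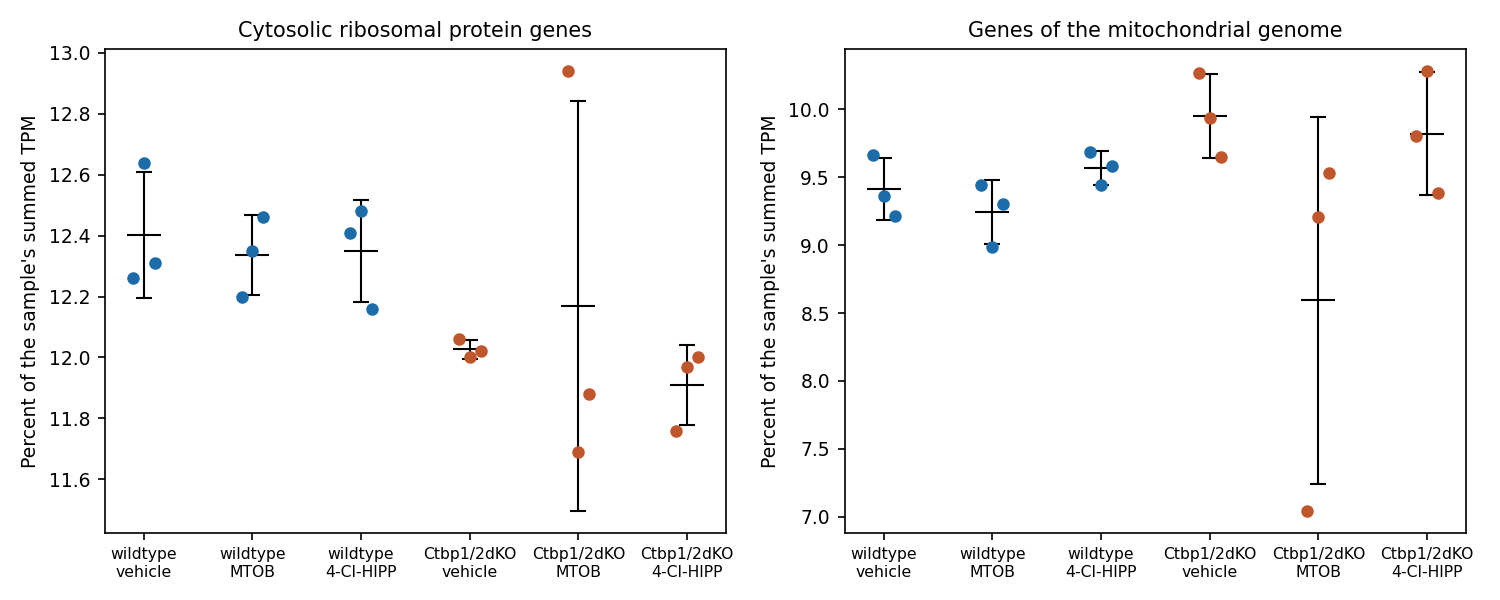
Percent of each sample's summed TPM held by the 87 ribosomal protein genes (left) and by genes of the mitochondrial genome (right), with a point per sample and the mean and SD of each group of 3 in black. The axes do not start at 0. The 3 dKO vehicle samples lie at or under 12.06% on the left, below the 3 wildtype vehicle samples.

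The comparison of dKO with wildtype under vehicle asks what loss of the corepressors does to untreated cells. The median log2 fold change of the members was −0.04 and that of all genes tested 0.01, and 65 of 87 members (74.7%) against 45.9% of all genes lay below 0. The members' median, with an SD between replicates of 0.031, stayed below 0 under every scaling tried, from −0.06 to −0.008. By subunit it was −0.05 for 52 large subunit members and −0.02 for 35 small subunit members. Of the members 1 passed as higher, where 7.01% of all genes did, and 3 as lower, where 3.72% of all genes did. A member that did not pass, here or below, may still have changed by a small amount. At an unadjusted p under 0.05 the count was 21 of 87, or 24.1% against 21.4% of all genes. None of the 87 also changed more than 1.5-fold, which 4.83% of all genes did.

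The 3 members lower in dKO were Rpl23a, Rpl7a and Rps4x. Rpl23a stood at 3289, 3195 and 3154 TPM in wildtype vehicle and at 2961, 2995 and 3001 TPM in dKO vehicle. Rpl7a, a large subunit protein that contacts ribosomal RNA, stood at 2342, 2422 and 2304 TPM against 2165, 2161 and 2154 TPM. Rps4x, the small subunit protein encoded on the X chromosome, stood at 1797, 1855 and 1801 TPM against 1741, 1688 and 1714 TPM. For each gene all dKO samples lay below all wildtype samples. The log2 fold changes were −0.11 for Rpl23a (SE 0.0266, adjusted p 0.0164), −0.12 for Rpl7a (SE 0.0357, adjusted p 0.0347) and −0.08 for Rps4x (SE 0.0250, adjusted p 0.0412). Under quantile normalization all 3 missed the threshold and the log2 fold changes shrank to −0.038 for Rpl23a (adjusted p 0.532), −0.059 for Rpl7a (adjusted p 0.434) and −0.032 for Rps4x (adjusted p 0.441). All 3 also missed it without a variance trend (adjusted p 0.159, 0.154 and 0.274) and without wildtype vehicle replicate 1, where the log2 fold changes were −0.09, −0.13 and −0.09. Single libraries decided these calls. Rpl23a also lost its call without dKO vehicle replicate 1 (−0.10, adjusted p 0.0615), Rpl7a without each of the other vehicle libraries but wildtype replicate 3 (−0.10 to −0.13, adjusted p 0.0822 to 0.141) and Rps4x without each but dKO replicate 1 (−0.07 to −0.09, adjusted p 0.0694 to 0.160). Members passing numbered 1 without wildtype vehicle replicate 1, 2 without wildtype vehicle replicate 2, dKO vehicle replicate 2 or dKO vehicle replicate 3, and 4 without wildtype vehicle replicate 3 or dKO vehicle replicate 1, against 4 with all samples. In these 6 fits 8.41% to 8.97% of all genes passed.

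The member higher in dKO was Rpl22l1, the paralog of Rpl22, and it kept its call under all 16 alternatives. Rpl22 binds RNA as well as sitting on the surface of the large subunit, and it is known to hold down its paralog by binding the Rpl22l1 message. Rpl22l1 stood at 305, 287 and 292 TPM in wildtype vehicle and at 377, 373 and 342 TPM in dKO vehicle. All 3 dKO samples lay above all 3 wildtype samples, and the log2 fold change was 0.30 (SE 0.0556, 95% confidence interval 0.19 to 0.42, adjusted p 0.00157). Over the alternatives the log2 fold change ranged from 0.28 to 0.35 and the adjusted p from 0.00133 to 0.0268.

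Rpl22 itself stood at 1417, 1383 and 1366 TPM in wildtype vehicle and at 1262, 1237 and 1294 TPM in dKO vehicle. The groups did not overlap, but the log2 fold change of −0.14 (95% confidence interval −0.23 to −0.04) missed the threshold with an adjusted p of 0.0749. It passed where the fit held the compared groups alone (adjusted p 0.0433, with a range of 0.0433 to 0.216 over the alternatives). Rpl22l1 made up 17.5% ± 0.282 (SD, n = 3) of the TPM of the pair in wildtype vehicle and 22.4% ± 1.25 (SD, n = 3) in dKO vehicle. The coding sequences of the pair share 0 words of 31 bases, where Rps27 and Rps27rt share all 225.

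The same pair was read in the treated cells. Under MTOB Rpl22l1 stood at 313, 319 and 314 TPM in wildtype and at 394, 362 and 393 TPM in dKO, with a log2 fold change of 0.28 (adjusted p 0.00335), and at 0.26 without dKO MTOB replicate 1 (adjusted p 0.0145, with a range of 0.00283 to 0.0341 over the alternatives). Under 4-Cl-HIPP it stood at 330.2, 353 and 363 TPM in wildtype and at 412, 377 and 383 TPM in dKO. All dKO samples again lay above all wildtype samples, but the log2 fold change of 0.16 missed the threshold (adjusted p 0.0848). Rpl22 stood at 1323, 1375 and 1307 TPM in wildtype MTOB and at 1360, 1277 and 1285 TPM in dKO MTOB, where the genotypes overlapped (log2 fold change −0.03). Under 4-Cl-HIPP the wildtype samples spread from 1247 to 1435 TPM around dKO values of 1283, 1264 and 1301 TPM, with a log2 fold change of −0.08 (adjusted p 0.339) that became −0.14 without wildtype 4-Cl-HIPP replicate 3 (adjusted p 0.0276, with a range of 0.0276 to 0.733 over the alternatives). The share of Rpl22l1 in the pair averaged 19.1% and 20.5% in wildtype MTOB and 4-Cl-HIPP and 22.6% and 23.3% in dKO.

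**Figure D3:**
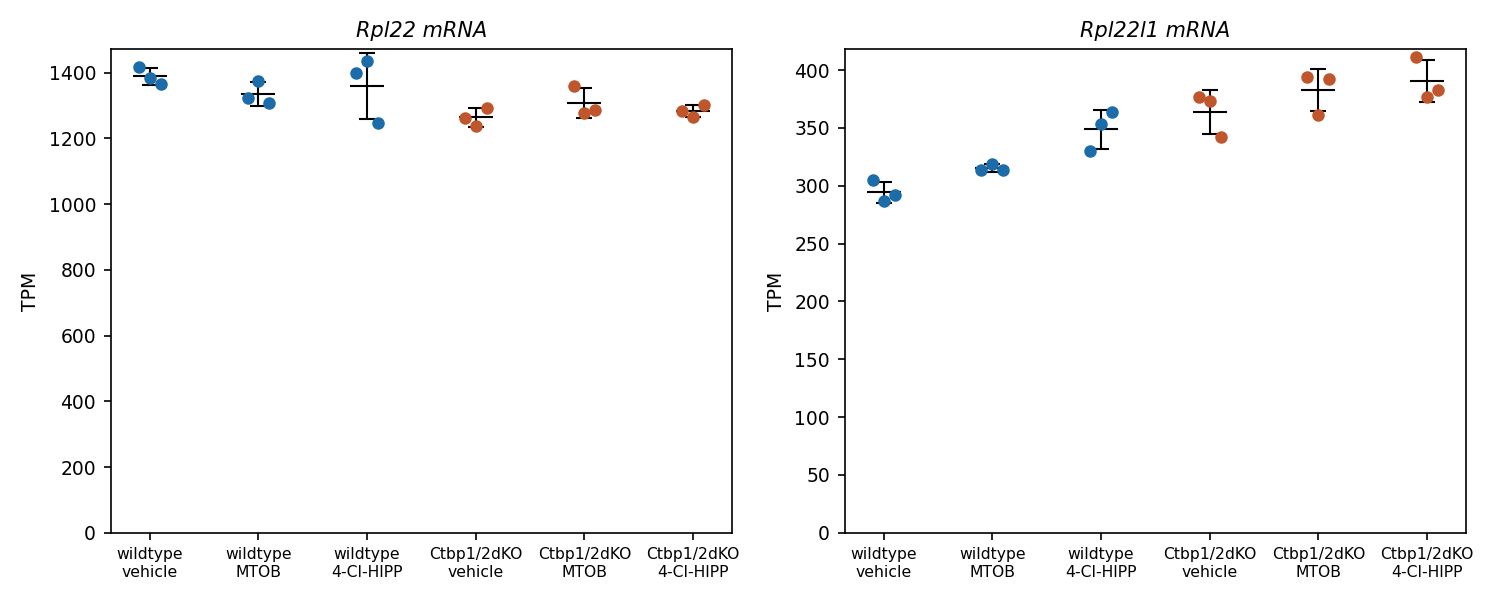
TPM of Rpl22 (left) and its paralog Rpl22l1 (right) in each sample, with a point per sample and the mean and SD of each group of 3 in black. Rpl22l1 lies between 287 and 305 TPM in wildtype vehicle and between 342 and 377 TPM in dKO vehicle.

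Start sequences were read for the members that passed in this comparison. RefSeq promoters (build GRCm38.p6) matched 64 of the 87 symbols with 76 entries, and Rpl23a had none. Each window below runs from 15 bases before the annotated start to the 15 bases that begin with it, on the strand of the gene, and is shown to let a reader see the pyrimidines around the start. Capitals mark the longest run of C and T. The windows are chr3:28805493-28805522 on the plus strand for Rpl22l1, chr2:26910792-26910821 on the plus strand for Rpl7a and chrX:102189377-102189406 on the minus strand for Rps4x.
Rpl22l1: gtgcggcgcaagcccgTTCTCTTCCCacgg
Rpl7a: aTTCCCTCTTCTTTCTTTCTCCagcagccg
Rps4x: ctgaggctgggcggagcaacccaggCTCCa
The longest run has 10 bases in Rpl22l1, 21 in Rpl7a and 4 in Rps4x. A C at the annotated start followed by at least 4 bases that are C or T, read on the strand of the gene, was found in 14 of the 76 entries of members (18.4%), in 823 of 32851 entries of all genes (2.51%) and in 0 of 75 entries of mitochondrial ribosomal protein genes. With the C and its 4 following bases allowed anywhere within the stretch from 5 bases before the start to 10 bases from it, the shares were 43.4%, 18.4% and 22.7%. None of the 3 windows has the pattern at the annotated start itself, which says only that these letters are not at that base.

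The comparison of MTOB with vehicle asks what the inhibitor does to cells that have its target and to cells in which the target genes were edited. In wildtype cells 0 of 87 members passed in limma in either direction, where 3.8% of all genes passed as higher and 3.46% as lower and 2.01% also changed more than 1.5-fold. At an unadjusted p under 0.05 the members numbered 2, or 2.30% against 18.4% of all genes. The median log2 fold change was −0.01 for the members and −0.01 for all genes. For 73 of 87 members (83.9%) the 95% confidence interval lay wholly within 1.2-fold in either direction, as it did for 21.4% of all genes. At a mean of 1000 TPM or more the spread between replicates was alike in members (0.0523) and other genes (0.0521). The larger share of narrow intervals, here and below, is therefore not read as particular to the family. The smallest p belonged to Rps13, which stood at 1386, 1270 and 1238 TPM under vehicle and at 1357, 1430 and 1403 TPM under MTOB (log2 fold change 0.11, adjusted p 0.120). The groups overlapped, and without wildtype vehicle replicate 1 Rps13 passed (log2 fold change 0.15, adjusted p 0.0126). Over the alternatives its log2 fold change ranged from 0.03 to 0.15 and its adjusted p from 0.0126 to 0.785. The next were Rpl23a (−0.07, adjusted p 0.183) and Rplp2 (0.09, adjusted p 0.296).

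In dKO cells 0 members passed as higher under MTOB in limma, where 3.04% of all genes did, and 1 as lower, where 3.54% did. That member, Rpl6l, also changed more than 1.5-fold, as did 1.63% of all genes, and 8 members (9.20%) against 19% of all genes had an unadjusted p under 0.05. The shares of all genes passing, here and for 4-Cl-HIPP in both genotypes, moved with the samples fitted (counts are given under processing). Rpl6l is annotated as a processed pseudogene of Rpl6, matching 98.7% of its aligned coding bases. Its average normalized count was only 25.5, against 7136 for Rpl6. It stood at 11.8, 9.21 and 9.10 TPM under vehicle and at 6.12, 7.07 and 5.72 TPM under MTOB, with no overlap (log2 fold change −0.59, adjusted p 0.0275, with a range of 0.0152 to 0.132 over the alternatives). The call was lost without dKO vehicle replicate 1 (log2 fold change −0.48, adjusted p 0.119), dKO vehicle replicate 2 (−0.64, 0.0502), dKO MTOB replicate 1 (−0.58, 0.0767) or dKO MTOB replicate 3 (−0.53, 0.0918). The members' median log2 fold change was 0.00 with all samples, −0.02 without dKO MTOB replicate 1 and 0.04 without dKO MTOB replicate 2. The interval lay within 1.2-fold for 70 of 87 members (80.5%) and 20.9% of all genes. The next by p were Rps27l, a p53-linked paralog of Rps27 (−0.08, adjusted p 0.131), and Rpl9 (0.08, adjusted p 0.134). Rps27l passed under quantile normalization (−0.13, adjusted p 0.0371) and Rpl9 with median-of-ratios scaling (0.11, adjusted p 0.0268), and over the alternatives the adjusted p ran up to 0.433 and 0.713.

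Pooling each member with its pseudogenes, a step chosen after the data had been seen, brought out Rpl3 in both genotypes. The copy Rpl3-ps1 stood at 1581, 1570 and 1566 TPM in wildtype vehicle and at 1431, 1422 and 1449 TPM in wildtype MTOB. In dKO it stood at 1605, 1601 and 1596 TPM under vehicle and at 1482, 1448 and 1513 TPM under MTOB. In each genotype all MTOB samples lay below all vehicle samples. The pooled Rpl3 had a log2 fold change of −0.12 in wildtype (adjusted p 0.0200) and of −0.12 in dKO (adjusted p 0.0238, and 0.0333 without dKO MTOB replicate 1), while Rpl3 alone had −0.03 (adjusted p 0.852) and −0.12 (adjusted p 0.222). Pooled Rpl10 passed as lower in dKO against wildtype under MTOB (−0.09, adjusted p 0.0492) and lost that call without dKO MTOB replicate 1 (−0.09, adjusted p 0.0868).

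With 4-Cl-HIPP, given at another dose than MTOB so that the inhibitors are not compared, 0 of 87 members passed in limma in wildtype cells, where 0.324% of all genes passed as higher, 0.0427% as lower and 0.14% also changed more than 1.5-fold. At an unadjusted p under 0.05 the members numbered 1, Rpl22l1, or 1.15% against 8.19% of all genes. Its wildtype 4-Cl-HIPP values, given above, lay above all wildtype vehicle values, with a log2 fold change of 0.24 (SE 0.0556, 95% confidence interval 0.12 to 0.36, adjusted p 0.0989, with a range of 0.0875 to 0.305 over the alternatives). In dKO cells its log2 fold change was 0.10 (adjusted p 0.676), and the difference between the genotypes was 0.14 (adjusted p 1). The next in wildtype were Rpl7a (−0.08, adjusted p 0.614) and Rpl6l (−0.30, adjusted p 0.665). The members' median was 0.00 and that of all genes 0.01, and the interval lay within 1.2-fold for 75 members (86.2%) and 27.8% of all genes.

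In dKO cells 0 of 87 members passed in limma under 4-Cl-HIPP, where 0.403% of all genes passed as higher, 0.0977% as lower and 0.153% also changed more than 1.5-fold, and 2 members (2.30%) against 8.47% of all genes had an unadjusted p under 0.05. The smallest p belonged to Rps16, at 855, 879 and 808 TPM under vehicle and 789, 762 and 806 TPM under 4-Cl-HIPP. All treated samples lay below all vehicle samples, with a log2 fold change of −0.11 (adjusted p 0.449). Over the alternatives it ranged from −0.14 to −0.02 (adjusted p 0.34 to 0.936). Named pseudogenes held 63.1% of the pooled TPM of Rps16. Rps16-ps2, with the same coding sequence, stood at 1320, 1380 and 1437 TPM under vehicle. Under 4-Cl-HIPP it stood at 1427, 1426 and 1353 TPM, an overlap. Rpl30 (−0.19, adjusted p 0.507) and Rpl28 (−0.10, adjusted p 0.597) followed by p. Over the alternatives the log2 fold change of Rpl28 ran from −0.15 to −0.04, and named pseudogenes held 60.6% of its pooled TPM. The median was −0.02 for the members and 0.00 for all genes, 57 of 87 members (65.5%) against 46.4% of all genes lay below 0, and the interval lay within 1.2-fold for 72 members (82.8%) and 27.2% of all genes.

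Whether an inhibitor acted differently in the genotypes was tested directly. For MTOB 0 members passed in limma, where 0.0916% of all genes did, and for 4-Cl-HIPP 0 members, where 0% did. At an unadjusted p under 0.05 there were 3 members (3.45%) for each inhibitor, against 6.89% of all genes for MTOB and 4.48% for 4-Cl-HIPP. For MTOB the smallest p belonged to Rps18 (wildtype minus dKO 0.36, adjusted p 0.551), Rpl23a (−0.10, adjusted p 0.610) and Rpl6l (0.54, adjusted p 0.671), and without dKO MTOB replicate 1 these were 0.31, −0.08 and 0.52. For 4-Cl-HIPP they were Rpl29 (0.51, adjusted p 1), Rpl39 (0.14, adjusted p 1) and Rps2 (0.36, adjusted p 1). Rps18 and Rps2 are genes whose TPM lies mostly in copies, and pooled with these copies the values became −0.02 for Rps18 (adjusted p 0.986) and −0.01 for Rps2 (adjusted p 1).

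The genotypes were also compared within each treatment. These comparisons share no sample with the one under vehicle. Under MTOB 1 member passed as higher, Rpl22l1, where 6.98% of all genes did, and 1 as lower, Rps27rt, where 4.18% did. At an unadjusted p under 0.05 there were 8 members (9.20%) against 22.4% of all genes. Rps27rt stood at 3384, 3603 and 3882 TPM in wildtype and at 3421, 3074 and 3015 TPM in dKO, so that dKO MTOB replicate 1 overlapped the wildtype samples (log2 fold change −0.19, adjusted p 0.0393, with a range of 0.00861 to 0.284 over the alternatives). Its twin in coding sequence, Rps27, averaged 244 TPM in wildtype MTOB and 513.5 TPM in dKO MTOB (log2 fold change 1.896, adjusted p 0.201). Its wildtype values were 523, 184 and 25.9 TPM, and the log2 fold change was 0.72 without replicate 3 of these (adjusted p 0.658) and 2.86 without replicate 1 (adjusted p 0.0382). The sum of both was 3907, 3786 and 3908 TPM in wildtype MTOB and 3939, 3523 and 3588 TPM in dKO MTOB, an overlap. Without dKO MTOB replicate 1 the members passing were Rpl22l1 as higher, where 7.14% of all genes did, and 9 as lower, where 3.56% of all genes did. The 9 were Rpl27a (−0.40), Rps27rt (−0.25), Rpl41 (−0.20), Rps10 (−0.14), Rps21 (−0.13), Rpl8 (−0.12), Rps9 (−0.11), Rps15 (−0.11) and Rps25 (−0.09), named after their values were seen. Rps27rt lost its call without wildtype MTOB replicate 2 (adjusted p 0.0873) or replicate 3 (0.177), or without dKO MTOB replicate 2 (0.128) or replicate 3 (0.150), and then 1 member passed. It also lost its call with the compared groups alone, without a variance trend and with a replicate block, where Rpl22l1 alone passed. The median of the members was −0.03 with all samples, against 0.00 for all genes, −0.06 without dKO MTOB replicate 1 and 0.002 without dKO MTOB replicate 2.

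Under 4-Cl-HIPP 0 of 87 members passed in limma between the genotypes, where 6.6% of all genes passed as higher and 3.63% as lower, and 14 members (16.1%) against 21.1% of all genes had an unadjusted p under 0.05. The median was −0.05 for the members and 0.00 for all genes, and 75 of 87 members (86.2%) against 47.2% of all genes lay below 0. The members' median stayed below 0 in every scaling tried, from −0.07 to −0.02. In all, 1 member passed as lower without wildtype 4-Cl-HIPP replicate 1, without wildtype 4-Cl-HIPP replicate 3 or without dKO 4-Cl-HIPP replicate 1, where 3.03%, 2.90% and 2.87% of all genes did. Short genes outside the family, 1906 with a longest transcript under 1000 bases, had a median of 0.00 in all 3 comparisons of the genotypes. It was exactly 0 under vehicle and MTOB, a value that arises for genes without signal in both groups. This median therefore does not describe short genes as abundant as the members.

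**Figure D4:**
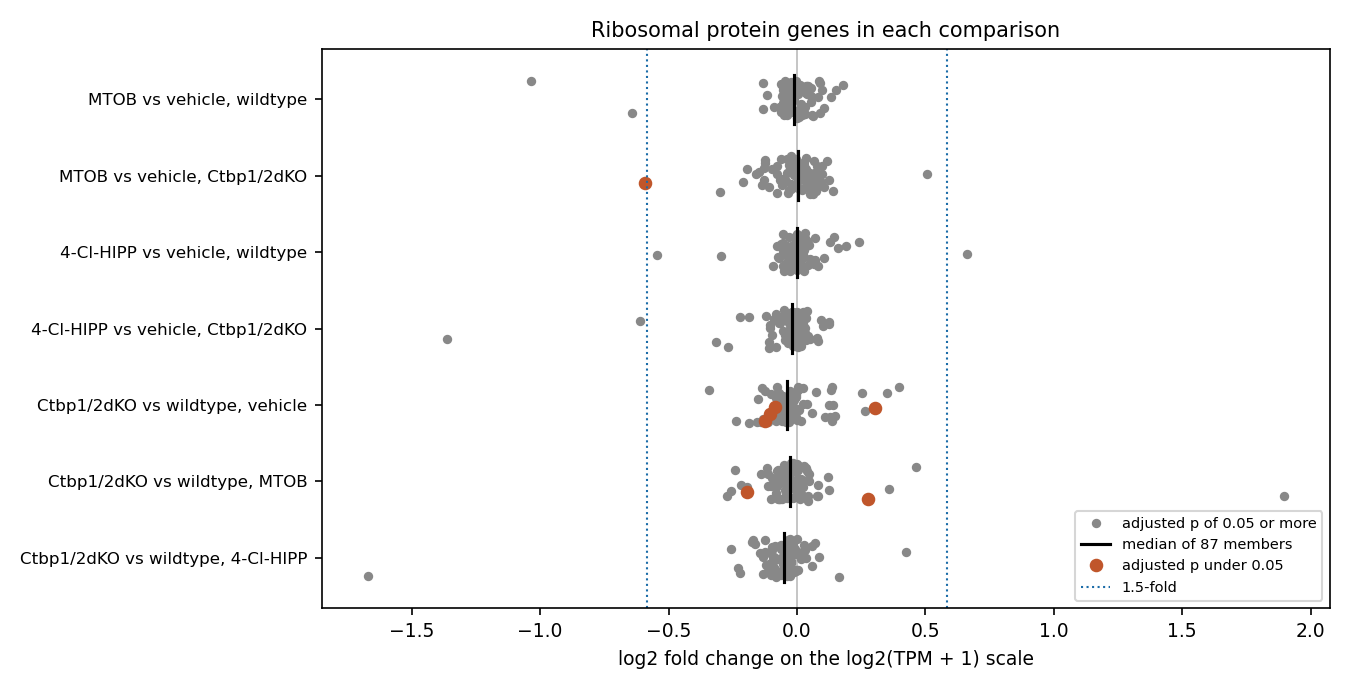
Log2 fold change of each of the 87 members in 7 comparisons, with the median as a black bar, members with an adjusted p under 0.05 as large orange points, and dotted lines at 1.5-fold. Points are spread vertically for legibility. Among the points far from 0 without a call is Rps27, at 1.896 in dKO against wildtype under MTOB (0.72 without wildtype MTOB replicate 3), −1.67 in dKO against wildtype under 4-Cl-HIPP and −1.36 in dKO 4-Cl-HIPP against vehicle (−0.66 and −0.35 without dKO 4-Cl-HIPP replicate 1).

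The paralogs Rpl7l1, Rpl36al, Rps27l and Rpl3l did not pass in any comparison of the main fit. Rpl7l1, which works in ribosome assembly, stood at 170.2, 184 and 147 TPM in wildtype vehicle and at 152, 135 and 137 TPM in dKO vehicle, with an overlap. Its log2 fold change was −0.24 under vehicle (adjusted p 0.119), −0.27 under MTOB (adjusted p 0.0657) and −0.22 under 4-Cl-HIPP (adjusted p 0.149). Rpl36al, a copy of Rpl36a that encodes nearly the same protein, stood at 808, 817 and 776 TPM in wildtype vehicle and at 708, 742 and 660.1 TPM in dKO vehicle. Those groups did not overlap, with a log2 fold change of −0.19 (adjusted p 0.0700). Rps27l ranged from 1117 to 1219 TPM over the 18 samples, a coefficient of variation of 2.73%, the lowest values being the 3 dKO MTOB samples at 1128, 1130.0 and 1117 TPM.

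Genes that work with the family were read from lists. Of 20 translation factors and related genes with terminal oligopyrimidine messages, 2 passed as higher and 2 as lower under MTOB in wildtype, where 3.8% and 3.46% of all genes did, and 1 and 2 in dKO, where 3.04% and 3.54% did. Eif4b, which helps the helicase of translation initiation, stood at 290, 282 and 302 TPM in wildtype vehicle and at 254, 251 and 251 TPM in wildtype MTOB. All treated samples lay below all vehicle samples in both genotypes, with log2 fold changes of −0.21 in wildtype (adjusted p 0.000137) and −0.30 in dKO (adjusted p 3.97e-06). Eif3f, an initiation factor subunit, was lower as well (−0.20 and −0.21), Npm1, a nucleolar chaperone, was higher (0.16 and 0.17) and Tpt1 was higher in wildtype (0.11). Between the genotypes Hnrnpa1 passed as higher under MTOB (0.14, with 6.98% of all genes) and under 4-Cl-HIPP (0.11, with 6.6%), and 0 passed under vehicle, with 3 of 20 at an unadjusted p under 0.05 where 21.4% of all genes were.

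Of 30 ribosome biogenesis genes, 1 passed as higher under MTOB in wildtype (3.8% of all genes), Ncl (0.12), a nucleolar protein, and 0 in dKO, with 3 of 30 at an unadjusted p under 0.05 where 19% of all genes were. In dKO against wildtype 0 passed as higher in limma, and 1, 2 and 1 passed as lower under vehicle, MTOB and 4-Cl-HIPP, where 3.72%, 4.18% and 3.63% of all genes did. These were Nolc1 (−0.11 under vehicle, −0.19 under MTOB) and Nip7 (−0.35 under MTOB, −0.32 under 4-Cl-HIPP). Under 4-Cl-HIPP against vehicle 0 passed in either genotype, while 8 of 30 in wildtype and 9 in dKO had an unadjusted p under 0.05, as did 8.19% and 8.47% of all genes. The list medians were −0.08 and −0.09, against 0.01 and 0.00 for all genes. Of 16 genes of RNA polymerase I and its factors, Taf1d passed as lower in dKO against wildtype under MTOB (−0.31, with 4.18% of all genes), and 0 passed in limma elsewhere, with 0 to 3 at an unadjusted p under 0.05 where 4.48% to 21.4% of all genes were.

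In the list of mTOR signalling to translation (22 genes), 3 passed as higher and 1 as lower in dKO vehicle against wildtype vehicle, where 7.01% and 3.72% of all genes did, 2 and 0 under MTOB (6.98% and 4.18%) and 2 and 0 under 4-Cl-HIPP (6.6% and 3.63%). Ddit4, an inhibitor of mTOR signalling, stood at 3.08, 3.21 and 5.51 TPM in wildtype vehicle and at 11.9, 12.8 and 11.6 TPM in dKO vehicle. Every dKO sample lay above every wildtype sample, and the log2 fold changes of dKO against wildtype were 1.443 (adjusted p 4.31e-05), 1.51 and 1.28 under vehicle, MTOB and 4-Cl-HIPP. Tsc2, part of the complex that restrains mTOR, passed as higher under vehicle (0.50). Under MTOB it did not pass, with means of 32.1 and 36.6 TPM in wildtype and dKO. There all dKO samples (40.8, 34.5 and 34.4 TPM) still lay above all wildtype samples (31.3, 31.2 and 33.8 TPM). Under 4-Cl-HIPP it did not pass either, with means of 39.8 and 35.3 TPM in wildtype and dKO. Rps6ka1 was higher under vehicle (0.41) and under 4-Cl-HIPP (0.29), Castor1 was higher under MTOB (0.65) and Rps6kb1, a kinase of RPS6, was lower under vehicle (−0.35). Under MTOB against vehicle 1 passed as higher and 2 as lower in wildtype (3.8% and 3.46% of all genes), namely Eif4ebp1 (0.31), Sesn1 (−0.35) and Rps6kb1 (−0.32), and 0 and 2 in dKO (3.04% and 3.54%), namely Sesn1 (−0.35) and Depdc5 (−0.65).

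Of 15 genes of ribosome quality control and ribosome stress, 2 passed as higher under MTOB in wildtype (3.8% of all genes), Cdkn1a (0.68) and Mdm2 (0.27), and Cdkn1a alone in dKO (0.60, with 3.04% of all genes). In dKO against wildtype 2, 1 and 2 passed as higher under vehicle, MTOB and 4-Cl-HIPP, where 7.01%, 6.98% and 6.6% of all genes did. These were Cdkn1a in all 3 (0.46, 0.37 and 0.30), Eif2ak4 under vehicle (0.33) and Hbs1l under 4-Cl-HIPP (0.27). Of 82 mitochondrial ribosomal protein genes, 1 passed as higher and 2 as lower under MTOB in wildtype (3.8% and 3.46% of all genes), 1 and 1 under MTOB in dKO (3.04% and 3.54%), and in dKO against wildtype 1 and 1 under vehicle (7.01% and 3.72%), 1 and 0 under MTOB (6.98% and 4.18%) and 2 and 1 under 4-Cl-HIPP (6.6% and 3.63%). Mrps6 was higher in dKO in all 3 (0.35, 0.50 and 0.37) and Mrpl52 was higher under MTOB in both genotypes (0.31 and 0.40). Under 4-Cl-HIPP against vehicle 0 genes of any of these lists passed in limma in either genotype, where 0.324% of all genes passed as higher and 0.0427% as lower in wildtype and 0.403% and 0.0977% in dKO.

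Among the genes outside the family, 10 were most like it over the 18 samples. Likeness was the Pearson correlation of a gene's log2 level with the mean of the members' centred log2 levels, given as a description over samples that share groups and the scaling to a fixed sum. The 10 were Fbl (0.81), a nucleolar methyltransferase of ribosomal RNA, Selenos (0.81), Ddt (0.80), Gss (0.79), Gm46223 (0.77), Dtymk (0.77), Eif3i (0.77), an initiation factor subunit, Rpsa (0.76), itself a small subunit protein, Uqcrh (0.76) and Atp5l (0.75). Within the family, over the 83 members with a mean of at least 10 TPM, the least like its mean were Rpl22l1 (−0.38) and Rps18 (−0.35), and the most like it were Rps21 (0.89) and Rpl26 (0.89). Without dKO MTOB replicate 1 the correlations of the 10 ran from 0.68 to 0.90, and those of these 4 members were −0.62, −0.21, 0.86 and 0.91, with Rpl28 (−0.30) and Rps20 (−0.21) then below Rps18.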

How the data were processed

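The authors deposited 1 table of 18204 genes. Its unit per sample is TPM, which the authors computed with Salmon 1.9.0 and summarised per gene. The table also gives a signal for every gene, its average normalized count, from the authors' DESeq2 1.44.0. The authors' log2 fold changes and adjusted p-values for each inhibitor in each genotype were not used, and 0 columns of sample values were left out. The labels name polyA RNA, while the methods name depletion of ribosomal RNA and an unstranded kit, so reads from overlapping antisense transcripts cannot be told apart.

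The 16383 genes whose average normalized count exceeded the 10th percentile were fitted on log2(TPM + 1) in limma 3.58.1 (R 4.3.3). The model held 6 group means, and variances were moderated by empirical Bayes along a trend on that average count. Contrasts were two-sided and adjusted by Benjamini-Hochberg over all genes, passing meant an adjusted p under 0.05, and p-values measure the spread between these samples. The procedure was tested on simulated data. Coding sequences were aligned with Biopython 1.88, and figures drawn with matplotlib 3.10.9.

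Members and lists were chosen with earlier results of these data known. Named members are those passing (up to 10 per direction with a mean of at least 10 TPM) or the 3 with the smallest p, the 5 highest and lowest in wildtype vehicle, listed paralogs and role groups, and the 3 with the smallest interaction p. Rpl6l, under 10 TPM, is named by its p. Alternatives covered the pseudocount, the filter, the scaling, the samples fitted, the variance trend, a replicate block, each sample left out and pseudogenes pooled with their member.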

Additional observations from a re-analysis of the deposited data

Results flagged for a closer look

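Rps27 lay on opposite sides of vehicle under 4-Cl-HIPP in the 2 genotypes, with no overlap in either. In wildtype it stood at 342, 243 and 268 TPM under vehicle and at 493, 469 and 384 TPM under 4-Cl-HIPP (log2 fold change 0.66). In dKO it stood at 476, 300.4 and 325 TPM under vehicle and at 33.3, 279.5 and 286 TPM under 4-Cl-HIPP (log2 fold change −1.36). Without the first of these 4-Cl-HIPP samples it was −0.35 (adjusted p 0.991), and neither genotype passed with all samples (adjusted p 0.932 and 0.735). Under MTOB the directions were the other way round: the wildtype mean was 244 TPM against 284 under vehicle (log2 fold change −1.04, adjusted p 0.603, and 0.14 without wildtype MTOB replicate 3) and the dKO mean 513.5 against 367 (0.51, adjusted p 0.832), with an overlap in both. The fit gave the difference between the genotypes under 4-Cl-HIPP an adjusted p of 1. Rps27 and Rps27rt have the same coding sequence, and their sum averaged 3754 and 3755 TPM in wildtype vehicle and 4-Cl-HIPP and 3480 and 3489 TPM in dKO vehicle and 4-Cl-HIPP. The way reads were divided between these genes was not tested.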

How the results depend on the processing

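Of the counts of members passing, 83 values under alternatives other than leaving out a sample stayed within 1.5 times the reported count and 13 did not. Of the medians 48 stayed within the replicate spread of 0.0308 and 1 did not. That spread is about as large as the medians themselves, so staying within it does not show that a median held. For dKO against wildtype under vehicle the median was −0.038, and an alternative value of −0.008 still lay within the spread. For the named members 278 such values kept their direction and side of the threshold, 15 lost the call, 3 gained it and 2 changed sign. With 1 sample left out, 182 kept both, 20 lost the call and 2 gained it.

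Under MTOB in wildtype 1 member passed with pseudogenes pooled, a setting chosen after seeing the data. Under MTOB in dKO 0 passed with a pseudocount of 0.1 or with the compared groups alone, 2 with median-of-ratios scaling or pooled pseudogenes and 3 with quantile normalization. For dKO against wildtype, 1 passed under vehicle without a variance trend. Under MTOB it was 1 with the compared groups alone, without a trend or with a replicate block, and under 4-Cl-HIPP 1 with median-of-ratios scaling, quantile normalization or the compared groups alone. The median for 4-Cl-HIPP was −0.0176 with quantile normalization. With pooled pseudogenes the difference of the inhibitor effects reversed to −0.0228 for Rps18 under MTOB and to −0.0121 for Rps2 under 4-Cl-HIPP. Of all genes under 4-Cl-HIPP in dKO, 66 passed as higher and 16 as lower, against 64 and 29 with median-of-ratios scaling. With the compared groups alone they were 4 and 5, and in wildtype 16 and 8 against 53 and 7 in the main fit. For MTOB in dKO 498 and 580 became 589 and 464 with median-of-ratios scaling and 195 and 110 with the compared groups alone. Because the number of all genes passing moved with the setting, the member counts above are not read as changes of the family. The causes were not tested.

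Leaving out 1 sample of the compared groups gave 0 to 1 members for MTOB in wildtype, 0 to 1 for MTOB in dKO, 1 to 4 for dKO against wildtype under vehicle, 1 to 10 under MTOB and 0 to 1 under 4-Cl-HIPP. With all samples 3.8% and 3.46% of all genes passed as higher and lower for MTOB in wildtype and 3.04% and 3.54% in dKO. In the fit that gave 10 members these shares were 7.14% and 3.56%. Shares of all genes moved between fits too, so these counts are not read as changes of the family. The median ranged from −0.0247 to 0.0445 for MTOB in dKO and from −0.0595 to 0.00244 for dKO against wildtype under MTOB. The 4-Cl-HIPP counts against vehicle and both counts of differing inhibitor effects were 0 in limma under every alternative.

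Replicate numbers showed no strong pairing over the genes tested as a whole: over 45 pairs of samples with the same number the residual correlation ran from −0.0866 to 0.0896. A replicate effect on single members could still be present. The depth of each sample is unknown, so counting error per sample was not given. Average normalized counts were available, and that of Rpl6l was low (25.5). TPM are shares, so a change in total RNA per cell would not show. Near-identical copies make the values of single members uncertain where pseudogenes hold much of the TPM.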
